A study of Homo sapiens with 6 samples.

Results

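The Polycomb repressive complexes are read here as 33 genes chosen by their symbols, namely 11 of PRC2, 20 of PRC1 and 2 of the deubiquitinase complex PR-DUB. The cells were HUVECs, primary endothelial cells that line the vein of the human umbilical cord. Of the 33, 29 had at least 1 probe set that the array annotation ties to that symbol alone, among 19775 such genes in all, and together these 29 had 85 probe sets. RNF2, BMI1, CBX8 and BAP1 had none and are not analysed here, so the measured members were 11 of 11 for PRC2, 17 of 20 for PRC1 and ASXL1 for PR-DUB. Both groups were transiently transfected with a non-liposomal reagent, the control group with a scrambled siRNA and the other with an siRNA against the long noncoding RNA ANRIL. Each group had 3 Affymetrix arrays of total RNA, and the question was which genes respond to ANRIL. The labels do not give the time between transfection and harvest, nor say whether the 3 arrays of a group came from separate donors, so p-values measure the spread between these samples, which may be technical.

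Polycomb proteins keep developmental genes silent by marking and compacting chromatin. PRC2 places methyl groups on lysine 27 of histone H3 through EZH2 or EZH1, with EED and SUZ12 as obligate partners. PRC1 places ubiquitin on histone H2A through RING1 or RNF2, paired with a PCGF protein. Canonical PRC1 is brought to methylated histone H3 by a CBX protein and polymerises through PHC proteins, while variant PRC1 holds RYBP or YAF2 in place of CBX. PR-DUB, with BAP1 and an ASXL protein, removes that ubiquitin. ANRIL is known to bind CBX7 and SUZ12 and to take part in silencing of CDKN2B and CDKN2A, so the comparison here asks whether the mRNAs of its protein partners differ after the siRNA.

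The siRNA used is shown because it defines the treated group. The labels give its 2 strands, written here 5′ to 3′, with bases 2 to 8 of the antisense strand in capitals. Those bases are the seed only if the antisense strand acts uncut at its given length, which was not tested. All 25 bases of the sense strand pair with the antisense strand of 27.
ANRIL siRNA sense: ggauaugugccaugaguaagaauaa
ANRIL siRNA antisense: uUAUUCUUacucauggcacauauccau

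Values are log2 intensities of the brightest probe set of a gene unless said otherwise, and differences are ANRIL siRNA minus control siRNA. The targeted transcript, CDKN2B-AS1, stood near the array's floor, with 4.08, 4.05 and 3.95 in control arrays 1 to 3 and 3.69, 4.05 and 4.05 in ANRIL siRNA arrays 1 to 3 (difference −0.10 ± 0.10, SE, n = 3 per group, limma adjusted p = 0.606). The groups overlapped, and without ANRIL siRNA replicate 1 the difference was 0.02, so these arrays give no check of the knockdown. Array medians lay between 6.14 and 6.23. The defining endothelial markers were bright, with all 6 at percentile 95.3 or higher of all probe sets. Their summed linear signal was 34681 to 37360 in control arrays and 30944 to 33105 in ANRIL siRNA arrays. All 6 were in the brightest of 10 classes of signal. In these deposited values the median difference of all genes there was −0.07, against 0.06 in the dimmest class. The median difference of the 6 was −0.17, and −0.10 after cyclic loess, a scaling that removes the trend with signal. The part of that trend in the marker sums was not tested. Summed signals were 1731 to 1785 and 1491 to 1579 for 4 smooth muscle markers, and 231 to 256 and 254 to 289 for 3 leukocyte markers. They were 891 to 931 and 926 to 1013 for 5 fibroblast markers, and 167 to 189 and 170 to 193 for 3 epithelial markers. Bright genes weigh most in such sums, and single smooth muscle and fibroblast markers went both ways. Of the smooth muscle markers ACTA2 differed by −0.26 and MYH11 by −0.03, but CNN1 by 0.20 and LMOD1 by 0.18. Of the fibroblast markers 4 were below 0, while COL1A1 was at 0.15. LUM (percentile 3.52), PTPRC (14.7) and CDH1 (16.3) were near the floor. In bulk RNA, a change in the number of cells of a type and a change in RNA per cell cannot be told apart. The ratio of 3′ to 5′ signal of ACTB, a sign of RNA quality, was 0.54 ± 0.05 (SD) in control arrays and 0.72 ± 0.13 in ANRIL siRNA arrays on the log2 scale, which an exact permutation test with both tails put at p = 0.2 (n = 3 per group; no p below 0.1 can be reached). The same measure of GAPDH was −0.0013 ± 0.012 in control arrays and 0.058 ± 0.030 in ANRIL siRNA arrays, and the same exact permutation test gave p = 0.1, the smallest it can reach, so the groups did not overlap. The part of these markers and of RNA quality in the differences below was not tested.

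No measured Polycomb gene passed an adjusted p of 0.05 with limma (0 of 29), and neither did any of the 19775 genes (0%). At an unadjusted p under 0.05 there was 1 member lower, EZH2, against 8.16% of all genes, and 1 higher, PCGF1, against 9.83%. Read against those shares, these counts are no result about the members. No member passed with an intensity-trended robust prior, where 2.15% of genes passed lower and 0.582% higher, nor among genes above the median signal (2.57% and 0.556%), nor with the trended prior after cyclic loess (0.379% and 0.298%). In the deposited values the differences were small. The 95% intervals of all 29 members lay between −0.36 and 0.45. Those of the 27 other than PCGF1 and CBX2 lay between −0.28 and 0.27. Changes over 1.21-fold down or 1.20-fold up thus lay outside the interval of the brightest probe set of each of those 27 in these values. This does not hold for their dimmer probe sets. The interval of the dimmest MTF2 probe set was −0.65 to −0.27, and that of the dimmest PCGF5 probe set reached 0.40. The intervals are not adjusted for the number of genes. After cyclic loess those of all 29 lay between −0.35 and 0.48, and that of L3MBTL2 reached 0.35. All 29 members were above the median signal of genes, and their mean signal was at percentile 68.5 to 96.7 of all probe sets.

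**Figure D1:**
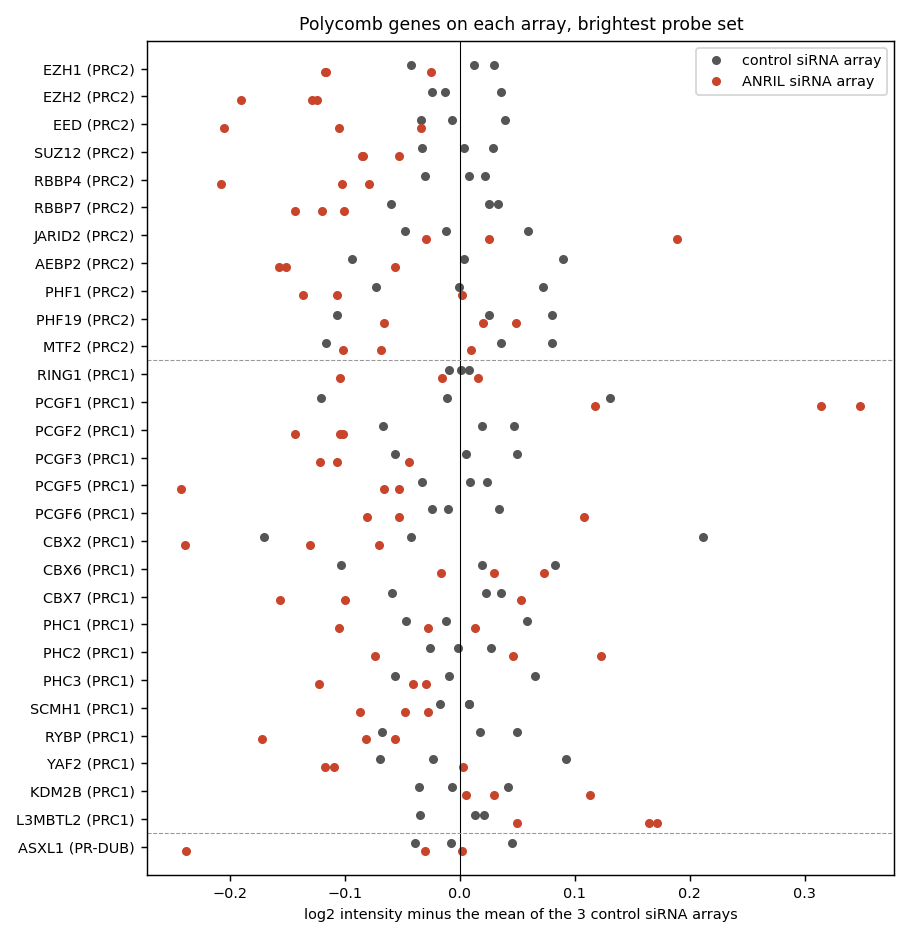
Log2 intensity of the brightest probe set of each of 29 Polycomb genes on each array (points; grey, 3 control siRNA arrays; red, 3 ANRIL siRNA arrays), with the mean of the control arrays set to 0 for each gene and dashed lines between PRC2, PRC1 and PR-DUB. The red points of 5 of the 6 core PRC2 genes lie left of all grey points, by the least for EED, and 2 of the 3 red points of PCGF1 lie furthest to the right.

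The 6 core subunits of PRC2 were all lower with ANRIL siRNA, by −0.07 to −0.15, with a median of −0.12. For 5 of the 6 the arrays of the groups did not overlap, where 12.8% of all genes had no overlap in that direction. EZH2, the main methyltransferase, read 7.51, 7.57 and 7.52 in control arrays and 7.34, 7.41 and 7.40 in ANRIL siRNA arrays. Every ANRIL siRNA array was below every control array. EZH2 thus differed by −0.15 ± 0.06 (SE, 3 arrays per group), or 1.11-fold, with a 95% interval of −0.28 to −0.02 and a limma adjusted p of 0.232. EZH2 has a single probe set among those used, so no other reading of it could be compared.

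EZH1, the paralogue that carries PRC2 activity in resting cells, read 8.78, 8.84 and 8.86 in control arrays and 8.71, 8.80 and 8.71 in ANRIL siRNA arrays. Its groups overlapped, the difference was −0.09 ± 0.06 (adjusted p = 0.461), and 4 of its 5 probe sets were lower. EED, which binds methylated histone H3 and stimulates the enzyme, read 9.86, 9.94 and 9.89 against 9.79, 9.86 and 9.69. Its groups were separate only past the second decimal (difference −0.11 ± 0.06, adjusted p = 0.369). SUZ12, the scaffold of PRC2 and one of the proteins known to bind ANRIL, read 10.19, 10.21 and 10.15 against 10.10, 10.13 and 10.10. The difference of −0.07 ± 0.06 (adjusted p = 0.506) was the smallest of the 6 core subunits, and its other 2 probe sets, at percentiles 12.8 and 11.3 of signal, both differed by 0.02.

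RBBP4 and RBBP7 are histone-binding proteins that PRC2 shares with other chromatin complexes. RBBP4 read 11.05, 11.00 and 11.04 against 10.95, 10.83 and 10.93 (difference −0.13 ± 0.06, adjusted p = 0.299), and RBBP7 read 10.59, 10.68 and 10.69 against 10.53, 10.55 and 10.51 (−0.12 ± 0.06, adjusted p = 0.308). Neither pair of groups overlapped. The second RBBP4 probe set differed by −0.14 and also had separate groups, while the 4 dimmer ones lay between −0.01 and 0.01, and RBBP4 was at 0.01 when probe sets of the _s_at and _x_at kinds were dropped. The difference between paralogues, such as EZH1 and EZH2, was not tested.

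The signal level of these genes bears on how their direction is read. Genes were put into 10 equal classes of mean signal, and in the 3 brightest classes 80.2%, 87.2% and 87.7% of all genes were below 0, with medians of −0.07, −0.08 and −0.07. No overlap with the ANRIL siRNA arrays lower was found for 23.6%, 29.4% and 35.9% of genes there. EED, SUZ12 and RBBP7 are in class 9 and RBBP4 in class 10. EZH2 is in class 6, where the median of all genes was 0.01 and 9.15% of genes had no overlap with lower values. After cyclic loess, a scaling that removes the trend with signal, 5 of 6 core subunits were still below 0 with a median of −0.04, SUZ12 was at 0.01, and EZH2 alone had separate groups. EZH2 was then at −0.15 ± 0.05 (adjusted p = 0.30), nearly the same as before, while EED moved to −0.04, RBBP4 to −0.05 and RBBP7 to −0.04.

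**Figure D2:**
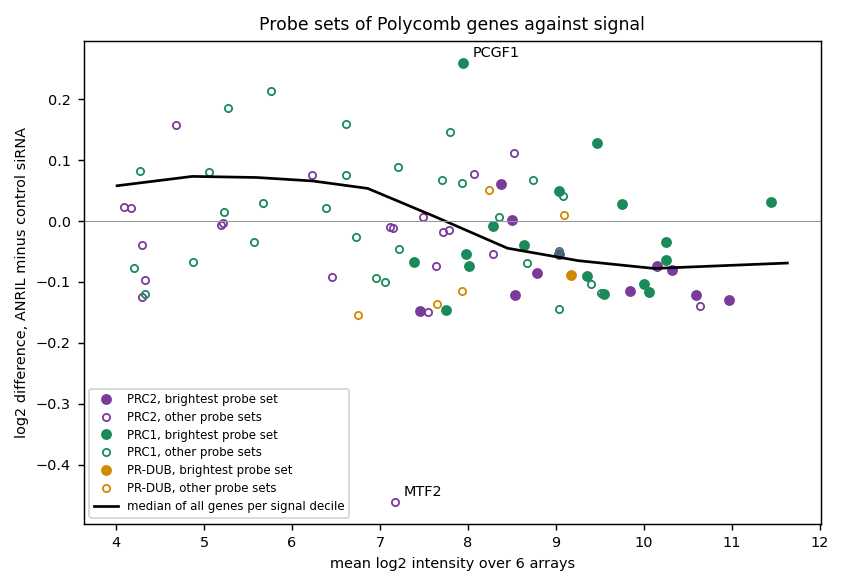
Log2 difference (ANRIL siRNA minus control siRNA) against mean log2 intensity for all 85 probe sets of the 29 Polycomb genes (filled, the brightest probe set of a gene; open, the others), with the median of all 19775 genes in each of 10 classes of signal as a black line. Bright Polycomb genes lie around a line that itself is below 0, and the dimmest MTF2 probe set lies far below all others at −0.46.

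The 5 accessory subunits, which steer PRC2 to its sites, did not share a direction. AEBP2 differed by −0.12 ± 0.07 and PHF1 by −0.08 ± 0.07, PHF19 was at 0.00 ± 0.07, and JARID2 was at 0.06 ± 0.07, with adjusted p-values of 0.363 to 0.993. JARID2, which helps recruit and activate PRC2, read 8.29, 8.40 and 8.33 in control arrays and 8.37, 8.53 and 8.31 in ANRIL siRNA arrays, so the groups overlapped. After cyclic loess JARID2 was at 0.10 ± 0.06 with separate groups and still did not pass (adjusted p = 0.475). PHF1, PHF19 and MTF2 are paralogues that read methylated histone H3 and bind CpG-rich DNA, and their brightest probe sets lay within −0.08 and 0.00.

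MTF2 held the largest difference of any Polycomb probe set, at the dimmest of its 5. That probe set read 7.46, 7.43 and 7.30 in control arrays and 6.78, 7.04 and 6.98 in ANRIL siRNA arrays. The ANRIL siRNA arrays were all lower. The difference was −0.46 ± 0.08 (SE), which is 1.38-fold, with a limma p of 0.000257 over 3 arrays per group and an adjusted p of 0.22. The other 4 MTF2 probe sets differed by −0.05, 0.11, −0.02 and −0.07, from the brightest to the dimmest, and each had overlapping groups. Within each array, the signal of the fifth probe set minus the mean of the other 4 was −0.87 to −0.78 in control arrays and −1.48 to −1.14 in ANRIL siRNA arrays (exact permutation test with both tails, p = 0.1, the smallest that n = 3 per group allows). This contrast was chosen after the values were seen. With an intensity-trended robust prior the probe set passed (adjusted p = 0.0212), where 0.577% of all probe sets passed with lower and 0.0531% with higher values. It did so with that prior after cyclic loess as well (adjusted p = 0.0463), where 0.106% and 0.0366% passed. Which MTF2 transcripts the 5 probe sets read was not analysed here.

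Of the 17 measured PRC1 genes 12 were below 0, with a median of −0.05, against 9 of 11 and a median of −0.09 for PRC2, and 10156 of 19775 genes with a median of 0.00. After cyclic loess 8 of 17 PRC1 genes and 6 of 11 PRC2 genes were below 0, with medians of 0.01 and −0.03, so the direction of the PRC1 median turned with the scaling. Set against the median of their own signal class, 8 of 17 PRC1 genes and 7 of 11 PRC2 genes were lower. The difference between the complexes was not tested. The plot of differences under both scalings gives each gene.

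**Figure D3:**
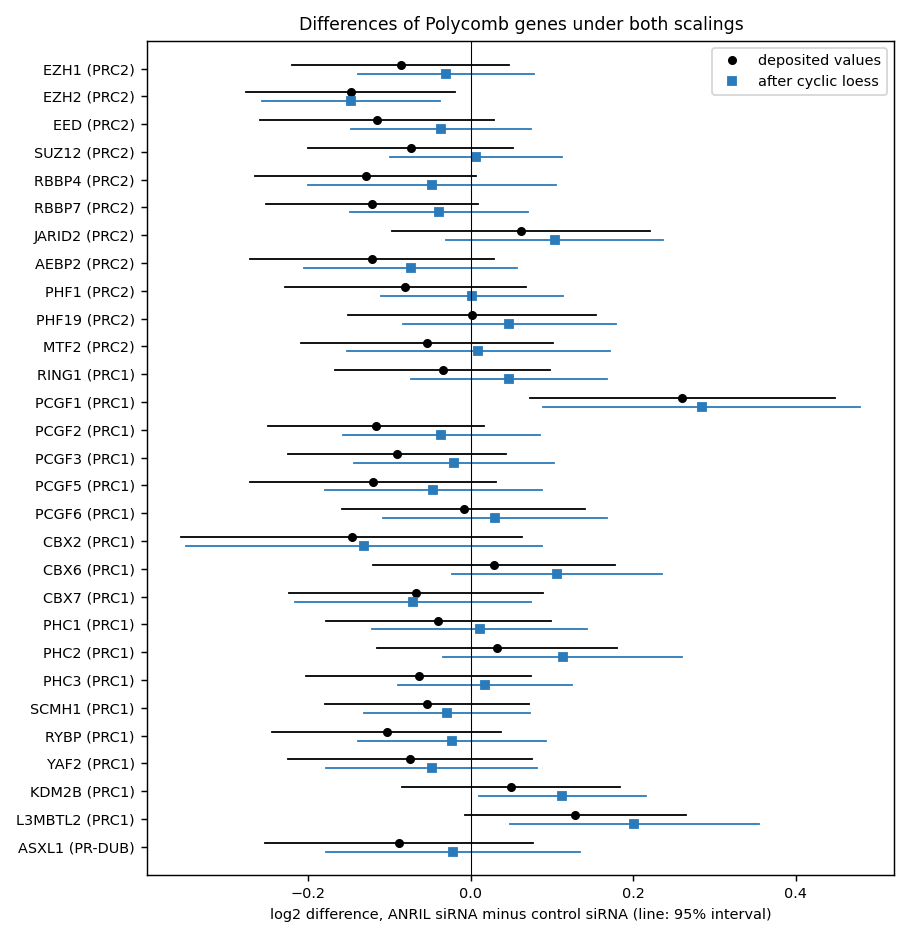
Log2 difference with its 95% interval for each of 29 Polycomb genes in the deposited values (black circles) and after cyclic loess (blue squares). The intervals of EZH2, below 0, and PCGF1, above 0, leave out 0 under both scalings, those of KDM2B and L3MBTL2 only after cyclic loess, and no gene passed after adjustment over all genes.

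RING1, the measured catalytic RING protein of PRC1, read 10.26, 10.25 and 10.27 in control arrays and 10.16, 10.28 and 10.25 in ANRIL siRNA arrays, a difference of −0.03 ± 0.06 (adjusted p = 0.778). PCGF proteins pair with it and define the kind of PRC1. PCGF1, of the variant complex that also holds KDM2B and BCOR, had the largest difference of the 29 brightest probe sets. It read 7.81, 7.70 and 7.95 in control arrays and 8.17, 8.13 and 7.93 in ANRIL siRNA arrays, so 2 of 3 arrays stood above all controls and ANRIL siRNA replicate 3 lay within them. The difference was 0.26 ± 0.08 (SE, n = 3 per group, 1.20-fold), with a limma p of 0.0114 and an adjusted p of 0.183. Its second probe set read 6.47, 6.57 and 6.54 against 6.70, 6.68 and 6.68, with separate groups and a difference of 0.16 ± 0.06 (adjusted p = 0.288). Both probe sets were thus higher, and the median of all genes in the signal class of the first was 0.01. After cyclic loess the first was at 0.28 and the second, which is dimmer at percentile 57.4 of signal, at 0.12.

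The other PCGF genes were lower or near 0. PCGF2, a close relative of BMI1 in canonical PRC1, read 10.05, 10.16 and 10.13 against 10.01, 9.97 and 10.01, with separate groups (−0.12 ± 0.06, adjusted p = 0.332). Its probe sets of rank 2 and 3 in signal differed by 0.04 and 0.07, and the mean of all 4 by −0.01. PCGF5 read 9.63, 9.61 and 9.57 against 9.55, 9.54 and 9.36, also with separate groups (−0.12 ± 0.07, adjusted p = 0.369), and PCGF3, which shares its variant complex type, differed by −0.09 ± 0.06. The mean of all probe sets was at 0.01 for both PCGF3 and PCGF5. PCGF6, of the variant complex with L3MBTL2 and E2F6, was at −0.01 ± 0.07.

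CBX proteins read methylated histone H3 for canonical PRC1. CBX7, the CBX protein known to bind ANRIL, read 7.36, 7.44 and 7.46 in control arrays and 7.47, 7.32 and 7.26 in ANRIL siRNA arrays. The highest value of all was in an ANRIL siRNA array, the groups overlapped, and the difference was −0.07 ± 0.07 (95% interval −0.22 to 0.09, adjusted p = 0.624). CBX6 was at 0.03 ± 0.07, and its dimmer probe set at −0.10. CBX2, which compacts nucleosomes, read 7.78, 8.03 and 7.65 against 7.69, 7.58 and 7.75, with a difference of −0.15 ± 0.09 (adjusted p = 0.428) and the widest spread between control arrays of all members. Without control siRNA replicate 2 the CBX2 difference was −0.041, and its mean over all 4 probe sets was −0.0028. The 4 CBX2 probe sets split, with those of rank 2 and 3 at −0.10 and 0.02, the former with separate groups. The dimmest read 5.71, 5.60 and 5.64 in control arrays and 5.85, 5.87 and 5.87 in ANRIL siRNA arrays, with separate groups. It differed by 0.21 ± 0.06, with a limma p of 0.00727 and an adjusted p of 0.231. This probe set is dim, at percentile 42.2 of signal, and was at 0.15 after cyclic loess.

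**Figure D4:**
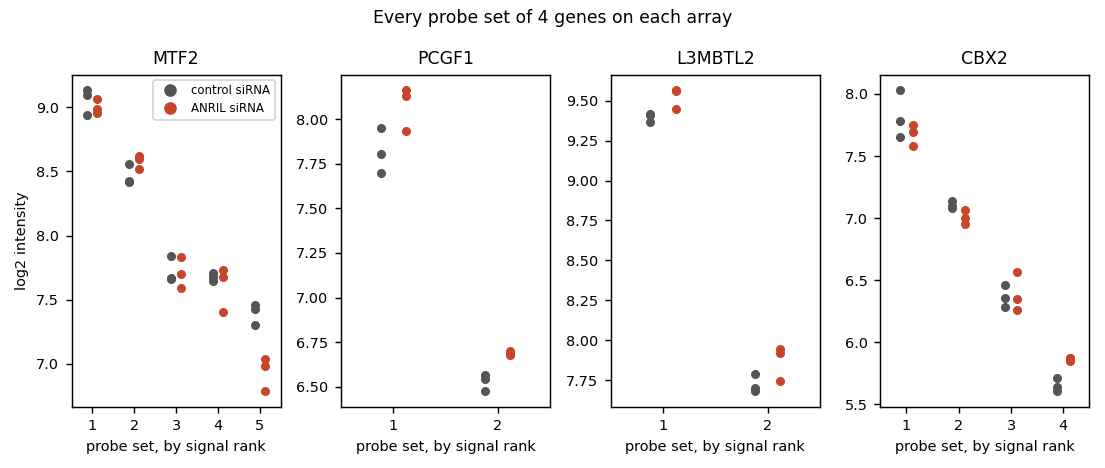
Log2 intensity on each array (grey, control siRNA; red, ANRIL siRNA) for every probe set of MTF2, PCGF1, L3MBTL2 and CBX2, ordered from the brightest, with a separate vertical scale for each gene that does not start at 0. The fifth MTF2 probe set is lower by 0.46 with ANRIL siRNA while the other 4 overlap, both probe sets of PCGF1 and of L3MBTL2 are higher, and those of CBX2 differ in direction.

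The PHC and SCM proteins carry the SAM domain through which canonical PRC1 polymerises. PHC2 was the brightest Polycomb gene, at 11.40, 11.46 and 11.43 in control arrays and 11.36, 11.48 and 11.55 in ANRIL siRNA arrays (0.03 ± 0.07). PHC1 differed by −0.04 ± 0.06 and PHC3 by −0.06 ± 0.06, and both groups overlapped for each. SCMH1 read 7.99, 8.01 and 8.01 against 7.96, 7.97 and 7.92, with separate groups and a difference of only −0.05 ± 0.06 (adjusted p = 0.626).

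Among the variant PRC1 subunits, L3MBTL2, a histone-binding protein of the PCGF6 complex, was the single member with separate groups and higher values, where 10.6% of all genes had no overlap in that direction. It read 9.41, 9.36 and 9.42 in control arrays and 9.56, 9.45 and 9.57 in ANRIL siRNA arrays, a difference of 0.13 ± 0.06 (SE, n = 3 per group, adjusted p = 0.301). In its signal class 2.28% of genes had separate groups with higher values. Its second probe set differed by 0.15 ± 0.08, with ANRIL siRNA array 2 at 7.75 inside the control range of 7.68 to 7.79. KDM2B, which takes variant PRC1 to unmethylated CpG islands, read 8.98, 9.05 and 9.0 against 9.04, 9.12 and 9.02 (0.05 ± 0.06). After cyclic loess L3MBTL2 was at 0.20 ± 0.07 and KDM2B at 0.11 ± 0.04, with unadjusted p-values of 0.0163 and 0.0354 and adjusted limma p-values of 0.30 and 0.347. The members with an unadjusted p under 0.05 were then 1 lower (EZH2) and 3 higher (PCGF1, KDM2B and L3MBTL2), against 5.88% and 7.51% of all genes. The paralogues RYBP and YAF2, which stimulate the ubiquitin ligase, differed by −0.10 ± 0.06 and −0.07 ± 0.07. RYBP had 3 of 4 probe sets lower and was at 0.08 when those of the _s_at and _x_at kinds were dropped. The probe set then left is near the floor, at percentile 14.9 of signal, and was at 0.03 after cyclic loess. ASXL1, the cofactor of BAP1 in PR-DUB, differed by −0.09 ± 0.07, where ANRIL siRNA replicate 1 read 8.98 and the other 5 arrays 9.18 to 9.27.

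After cyclic loess 6 members had separate groups with higher values, namely JARID2, PCGF1, CBX6, PHC2, KDM2B and L3MBTL2, where 11.2% of genes did, and EZH2 and SCMH1 had them with lower values, where 8.61% did. Of the 85 probe sets of the members, 12 had separate groups with lower values and 4 with higher, against 9.97% and 11% of all probe sets. At an unadjusted p under 0.05 there were 2 lower, the single probe set of EZH2 and the fifth of MTF2, and 3 higher, both of PCGF1 and the dimmest of CBX2, against 6.14% and 8.96% of all probe sets. Of the 23 members with several probe sets, 7 had all of them on the side of the brightest.

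Promoter sequences are shown for EZH2 and EED, the enzyme and reader of the PRC2 core, and for PCGF1 and L3MBTL2, the PRC1 members with the largest differences above 0; they were chosen after the values were seen. Each run holds the 250 bases before the start site in RefSeq (GRCh38.p14), 5′ to 3′ on the strand of the gene. Capitals mark GC boxes (GGGCGG, bound by SP and KLF factors) and CCAAT boxes (CCAAT, bound by NF-Y), on either strand. The windows are chr7:148884292-148884541 (minus strand) for EZH2, chr11:86244503-86244752 (plus) for EED, chr2:74507696-74507945 (minus) for PCGF1 and chr22:41205062-41205311 (plus) for L3MBTL2.
EZH2: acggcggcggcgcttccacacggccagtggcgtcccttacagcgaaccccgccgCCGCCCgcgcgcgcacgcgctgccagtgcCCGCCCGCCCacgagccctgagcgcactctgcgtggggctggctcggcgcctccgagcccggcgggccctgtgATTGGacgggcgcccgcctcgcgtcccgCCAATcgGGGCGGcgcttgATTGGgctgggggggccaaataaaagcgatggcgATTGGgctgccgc
EED: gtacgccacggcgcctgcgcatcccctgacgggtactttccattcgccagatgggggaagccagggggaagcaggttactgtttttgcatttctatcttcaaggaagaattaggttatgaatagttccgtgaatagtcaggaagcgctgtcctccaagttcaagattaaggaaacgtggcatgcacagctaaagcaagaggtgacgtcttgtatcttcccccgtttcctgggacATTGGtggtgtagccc
PCGF1: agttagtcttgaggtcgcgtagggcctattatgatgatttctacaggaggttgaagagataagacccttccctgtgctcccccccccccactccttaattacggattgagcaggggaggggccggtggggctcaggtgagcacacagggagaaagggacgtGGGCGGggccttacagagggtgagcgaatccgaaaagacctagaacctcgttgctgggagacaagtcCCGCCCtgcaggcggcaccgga
L3MBTL2: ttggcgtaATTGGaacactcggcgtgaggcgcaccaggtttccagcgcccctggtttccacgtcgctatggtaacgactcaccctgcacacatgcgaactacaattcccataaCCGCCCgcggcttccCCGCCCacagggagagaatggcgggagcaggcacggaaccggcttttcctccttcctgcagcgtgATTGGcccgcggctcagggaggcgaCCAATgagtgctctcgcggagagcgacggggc

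The EZH2 window held 4 GC boxes and 4 CCAAT boxes, that of EED 0 and 1, that of PCGF1 2 and 0, and that of L3MBTL2 2 and 3. Windows were found for 30 of the 33 genes. A gene was counted if any of its windows held the letters. A GC box was found for 24 of the 30, against 46.2% of 27305 genes with a window, and a CCAAT box for 13, against 37%. The 27305 genes were not limited to those read on the array, nor matched in signal to the members. The E2F letters GGCGGGAA, which can overlap a GC box, were in 1 (RNF2, which has no array value here), against 3.31% of genes. The ETS letters CCGGAAG were in 5 against 10.2%, and the NRF1 letters GCATGCGC in 3 against 3.22%. These matches describe the letters of the windows and show no binding.

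The neighbours of the complexes in the same pathway did not pass either. Of 18 partners of variant PRC1, 14 were below 0, with a median of −0.05, and at an unadjusted p under 0.05 there were 4 lower and 0 higher, against 8.16% and 9.83% of all genes. After cyclic loess 9 were below and 9 above 0, the median was 0.00, and 1 was lower and 1 higher at that p. Those of smallest p were CSNK2A2, a casein kinase subunit that phosphorylates PRC1 components (−0.21 ± 0.06, adjusted p = 0.170), FBRSL1 (−0.17 ± 0.07) and the deacetylase HDAC2 (−0.16 ± 0.06). FBRSL1 had 2 of 6 probe sets on that side, and their mean was 0.00. Of 13 partners of PR-DUB and SAM-domain proteins, 3 were lower and 0 higher at that p, namely MBD5 (−0.25 ± 0.09), MBD6 (−0.18 ± 0.07) and FOXK1 (−0.17 ± 0.08), against the same 8.16% and 9.83%. MBD5 had 1 of 3 probe sets on that side and a mean of 0.01 over them, and with the mean of all probe sets 0 genes of the list were lower and 1 higher at that p. Of 17 enzymes and complex subunits that oppose Polycomb, such as histone H3 lysine 4 methyltransferases, 13 were below 0. At that p 2 were lower, KMT2C (−0.17 ± 0.06) and the SWI/SNF subunit ARID1A (−0.18 ± 0.07), while KMT2A at −0.18 ± 0.09 was not. The share of all genes was again 8.16%. After cyclic loess KMT2C and ARID1A were both at −0.10, and 0 of the list were lower and 1 higher at that p.

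**Figure D5:**
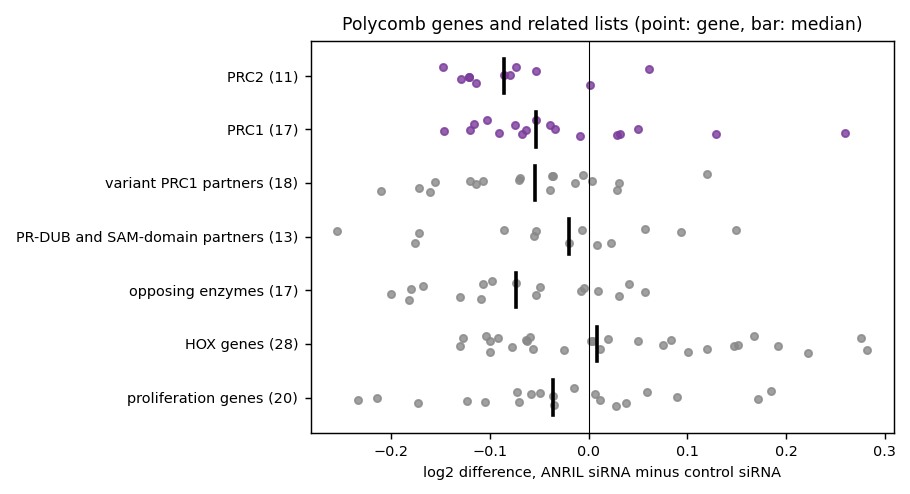
Log2 difference of each gene (points) and the median (black bars) for PRC2, PRC1 and 5 related lists, with the number of measured genes in brackets and random vertical scatter. In these deposited values PRC2 has a median of −0.09 and HOX genes one of 0.01. After cyclic loess, not plotted here, the medians were −0.03 for PRC2, 0.01 for PRC1 and for the PR-DUB partners, and 0.02 for HOX genes.

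HOX genes, the textbook targets of Polycomb silencing, had 28 of 39 members measured. They lay on both sides of 0, with 16 above, 12 below and a median of 0.01. At an unadjusted p under 0.05 there were 5 higher and 0 lower, against 9.83% and 8.16% of all genes. HOXC4 read 0.28 ± 0.07 higher, HOXB13 0.28 ± 0.07 and HOXC10 0.19 ± 0.07, each with separate groups (limma adjusted p = 0.154, 0.154 and 0.208). HOXB13 had 1 of 2 probe sets on that side and a mean of 0.06, and HOXC10 was at 0.13 with overlapping groups after cyclic loess. All 3 were dim, at percentiles 40.2 to 48.2 of signal, where the signal classes 3 and 4 had medians of 0.07. After cyclic loess 3 HOX genes were higher and 1 lower at that p. At the ANRIL locus, CDKN2A was at −0.15 ± 0.06 with separate groups and CDKN2B at −0.10 ± 0.06 and overlapping ones (limma adjusted p = 0.237 and 0.426). CDKN2A is in signal class 8, where 23.6% of genes had separate groups with lower values, and after cyclic loess CDKN2A was at −0.07 and CDKN2B at −0.06.

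EZH2 and EED are known to follow the cell cycle, and 20 proliferation genes are therefore given beside them. Of these 12 were below 0, with a median of −0.04, and 3 were lower and 0 higher at an unadjusted p under 0.05, against 8.16% and 9.83% of all genes. After cyclic loess the median was −0.01, and the same 3 were lower and 0 higher at that p, against 5.88% and 7.51% of genes. As the mean of all probe sets the median was 0.01, with 12 of 20 above 0. At that p 2 were then lower and 0 higher, against 1393 and 2033 of 19775 genes. The 3 were TYMS, a thymidylate synthesis enzyme (−0.21 ± 0.06), the replication helicase subunit MCM7 (−0.23 ± 0.07) and cyclin B1, CCNB1 (−0.17 ± 0.06), with limma adjusted p-values of 0.167, 0.170 and 0.204 and separate groups each. CCNB1 had 1 of 2 probe sets on that side and a mean of −0.02. MKI67 was at 0.06 ± 0.08 and E2F1 at −0.04 ± 0.08, and the part of proliferation in the EZH2 difference was not tested.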

How the data were processed

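The deposited table holds log2 intensities of 54675 probe sets on 6 Affymetrix arrays. Per the submitters' processing notes the authors used RMA (background correction, quantile normalization and log2 summary per probe set), affy and limma, with versions not given in the sources used here. From these values 62 control probe sets were left out. Symbols came from the platform annotation, updated through the RefSeq gene table (GRCh38.p14), which 41037 of the 41091 probe sets with 1 symbol matched. A further 1801 had several symbols and 11721 were not listed, and none of those was named. Each of 19775 genes was read by its brightest probe set. Differences were fitted with limma 3.58.1 in R 4.3.3 (lmFit and eBayes, constant prior, no replicate block), with Benjamini-Hochberg adjustment over all genes, or over all 54613 probe sets for single probe sets. The fit was tested on simulated data. Having 3 arrays in each group sets the precision. The named genes are the members, the ANRIL locus and the 3 genes of smallest p in each related list, and further HOX, marker and proliferation values are given as description. Alternatives were the replicate block, an intensity-trended robust prior, array weights, cyclic loess, a repeated quantile normalization, median centring, a signal filter, other rules for probe sets, and each array left out. The trended prior after cyclic loess was added after the data were seen. The members and lists were chosen with earlier results of these data known.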

Additional observations from a re-analysis of the deposited data

How the results depend on the processing

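No brightest probe set of a member passed in any of the 16 alternatives. At an unadjusted p under 0.05, 1 member was lower and 1 higher, against 8.16% and 9.83% of all genes. Over members' probe sets 1 passed with lower values, that of MTF2, with the intensity-trended robust prior and with that prior after cyclic loess. Over all genes the trended prior called 426 lower and 115 higher, after cyclic loess 75 and 59, the filter above the median signal 254 and 55, and centring on array medians 31 and 1. With the trended prior CSNK2A2 was the 1 variant PRC1 partner and TYMS the 1 proliferation gene to pass. The PRC2 median was −0.12 to −0.07 and the PRC1 median −0.07 to −0.03 with 1 array left out. The PRC2 median was −0.020 after repeated quantile normalization, −0.030 after cyclic loess, −0.136 with arrays centred on medians and −0.056 without _s_at and _x_at probe sets. That last median leaves out EZH2, which has no other probe set, and reads EED by a probe set at percentile 15.4 of signal. The PRC1 median was 0.023 after repeated quantile normalization, 0.011 after cyclic loess, −0.104 with arrays centred on medians and −0.00855 as the mean of all probe sets.

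Equal replicate numbers were not treated as pairs, since deviations of same-numbered arrays correlated at 0.06, 0.14 and −0.04. With the number as a block 0 genes passed, PRC2 had a median of −0.09 and no call changed. Signs turned for SUZ12 (0.0145 with quantile normalization repeated, 0.00702 with cyclic loess), PHF1 (0.0128 and 0.00145), MTF2 (0.0150 and 0.00949), RING1 (0.0562 and 0.0469), PCGF6 (0.0388 and 0.0300), PHC1 (0.0231 and 0.0113) and PHC3 (0.0277 and 0.0174), and the loess values were the same with the trended prior. As the mean of all probe sets PCGF3 was at 0.00989, PCGF5 at 0.00511 and CBX6 at −0.0372. Without _s_at and _x_at probe sets RBBP4 was at 0.00653 and RYBP at 0.0828, the latter read by a probe set at percentile 14.9 of signal. Array weights gave −0.0285 for PHF19 and −0.00592 for PHC2. Centring on medians gave −0.049 for PHF19, −0.0215 for CBX6, −0.0182 for PHC2 and −6e-04 for KDM2B. With 1 array left out, values ranged from −0.159 to 0.0240 for the targeted transcript, −0.002 to 0.107 for JARID2, −0.0520 to 0.0416 for PHF19, −0.0598 to 0.00045 for RING1, −0.0665 to 0.0275 for PCGF6, −0.0226 to 0.0704 for CBX6 and −0.0135 to 0.0850 for PHC2. In these alternatives 13 of 29 members never changed sign, among them EZH2, PCGF1, L3MBTL2 and CBX7. The replicate block, the trended prior and the signal filter leave the difference of a gene as it is, so they could not turn a sign. Without _s_at and _x_at probe sets 23 members had a value, and EZH2 was not among them. Size depended on single arrays for some members whose sign held with each array left out. CBX2 ranged from −0.231 (without control replicate 3) to −0.041 (without control replicate 2), CBX7 from −0.128 (without ANRIL siRNA replicate 1) to −0.023 (without ANRIL siRNA replicate 3), EED was −0.070 and PCGF5 −0.059 without ANRIL siRNA replicate 3, and ASXL1 was −0.014 without ANRIL siRNA replicate 1. The cause of these changes was not tested.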
